A study of Homo sapiens with 6 samples.

Results

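The HOX cluster genes are the 39 protein-coding members of the homeobox clusters A, B, C and D, taken by symbol (HOXA, HOXB, HOXC or HOXD followed by a number) and matched by Ensembl identifier among 62703 annotated genes. Their mRNA was measured by RNA sequencing of total RNA from MDA-MB-231, an established human line of basal, mesenchymal-type breast cancer cells. In 3 libraries the cells carried a control hairpin (shControl) and in 3 a hairpin against RNF20 (shRNF20). RNF20 is an E3 ligase that, with its partner RNF40, attaches a single ubiquitin to a lysine of histone H2B, a mark of transcribed genes. The number of hairpins, the state of the cells (pool or clone) and the origin of the replicates (separate cultures or not) are not in the labels, and the p-values therefore cover the variation among these 6 libraries only, part of which may be technical.

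HOX genes encode transcription factors that bind DNA through a homeodomain and give cells their position along the body axis. Within each cluster the genes are numbered by paralogue group, from 1, used most anteriorly, to 13, used most posteriorly, and all stand on the same strand in that order. In differentiated cells the choice of active HOX genes is a lasting record of position, kept by the opposing Polycomb and Trithorax (MLL) chromatin complexes. Retinoic acid is the classic inducer of the anterior genes.

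Most HOX genes were silent or nearly so in these cells, and 1 gene, HOXB9, made up most of the HOX counts in shControl. HOXB9 fell 4.07-fold in shRNF20, and HOXB3 and HOXD3 fell with smaller differences, while HOXC8 and HOXD4 rose. In cluster D the called genes moved in opposite directions: HOXD3 fell, and HOXD4, which lies within its span, rose. These 5 calls, of 10 HOX genes abundant enough to test, came from edgeR's quasi-likelihood test with Benjamini-Hochberg adjustment over all 15797 genes tested, with a threshold of 0.05. The same test called 58.4% of all genes tested, 28.7% as higher and 29.8% as lower, and 52.0% of the 7608 genes within the abundance range of the tested HOX genes, so 2 higher and 3 lower of 10 is a share near the background.

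The homeobox of HOXB9 is shown because HOXB9 is the gene on which most of the values below turn and the homeobox defines the family. It is the coding stretch of 180 bases that encodes the homeodomain, at chr17:48622921-48623100, read from the reference genome (GRCh38) on the minus strand, 5′ to 3′. Capitals mark bases 142 to 159, which encode the core of the third helix, the part of the homeodomain that lies in the major groove of DNA.
HOXB9: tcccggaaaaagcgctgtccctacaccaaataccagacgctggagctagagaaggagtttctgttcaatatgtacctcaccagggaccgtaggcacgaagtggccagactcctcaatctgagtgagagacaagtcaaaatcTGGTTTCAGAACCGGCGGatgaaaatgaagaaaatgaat
A homeobox was found in 39 of 39 members. Each was located by the conserved residues of its third-helix core, so the likeness of the translated cores was largely set by the search. The core was written in 30 different base sequences that all translate alike, and the base sequence of HOXB9 was found in that gene alone. HOXB9 shared 82.2% of its homeobox bases with HOXC9, a member of the same paralogue group though not the member closest to HOXB9. Across the family, the 42 pairs within a paralogue group had a median identity of 81.7% (range 69.4% to 90.6%) and the 699 other pairs one of 60.6% (range 47.8% to 91.1%). The longest run of identical bases between any pair was 51. A read that fits more than 1 place is not counted for any gene, so a read inside such a run would be lost from both.

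The knockdown was present in every shRNF20 library: RNF20 stood at 57.7, 58.4 and 57.9 CPM (counts per 1000000, on library sizes scaled by the TMM method) in shControl and at 14.1, 12.2 and 11.1 in shRNF20, a log2 fold change of -2.22 (SE 0.11, edgeR adjusted p = 5.23e-06). Gene counts totalled 21988826 to 29685306 per library, so 3 counts, the most that a count of 0 allows, were worth 0.101 to 0.136 CPM. This limit covers counting error only. The shRNF20 libraries lay closer together than the shControl libraries, with a mean chi-square per gene of 2.13 to 7.65 between pairs, against 36.0 to 58.9, where 1 would be sampling noise alone. When the 3 shRNF20 libraries were summed and counted as 1 sample, 3395 genes were called in place of 9232. Genes listed for a breast cancer line of basal or mesenchymal type summed to 5524 to 5916 CPM in shControl and 3913 to 3956 in shRNF20 (1 of 10 higher and 7 lower). Luminal markers summed to 1000 to 1126 and 1170 to 1186 (4 of 8 tested higher, 2 lower). Both lists hold the keratins KRT8 and KRT18, and the first also holds KRT19. These sums therefore share genes and do not measure basal against luminal type separately. Leukocyte markers summed to 3.999 to 5.52 and 4.63 to 6.30 CPM, with MS4A1 at 0 in every library (3 of 10 tested, 1 higher and 1 lower). Fibroblast and endothelial markers summed to 29.95 to 40.9 CPM in shControl and 65.1 to 68.9 in shRNF20, with COL1A1, LUM, PDGFRB and COL3A1 higher and PECAM1 lower among 7 tested of 11. The part of these differences in the HOX values was not tested.

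Of the 39 HOX genes, 19 had no count in any of the 6 libraries. Among them were HOXA2, HOXA3, HOXA4, HOXA5, HOXA6, HOXA7, HOXA9 and HOXA11 of cluster A, HOXB1 and HOXB13 of cluster B, HOXC10, HOXC11, HOXC12 and HOXC13 of cluster C, and HOXD8, HOXD9, HOXD10 and HOXD13 of cluster D. Cluster A, on chromosome 7, was thus the emptiest, with 9 of 11 members at 0, against 2 of 10 in cluster B (chromosome 17), 4 of 9 in cluster C (chromosome 12) and 4 of 9 in cluster D (chromosome 2). The genes with reads lay in blocks of neighbours: HOXB2 to HOXB9, HOXC4 to HOXC9, and HOXD1 to HOXD4, with HOXA13 alone above 3 counts in cluster A. Beyond group 9 every member of clusters B, C and D had at most 3 counts in a library.

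**Figure D1:**
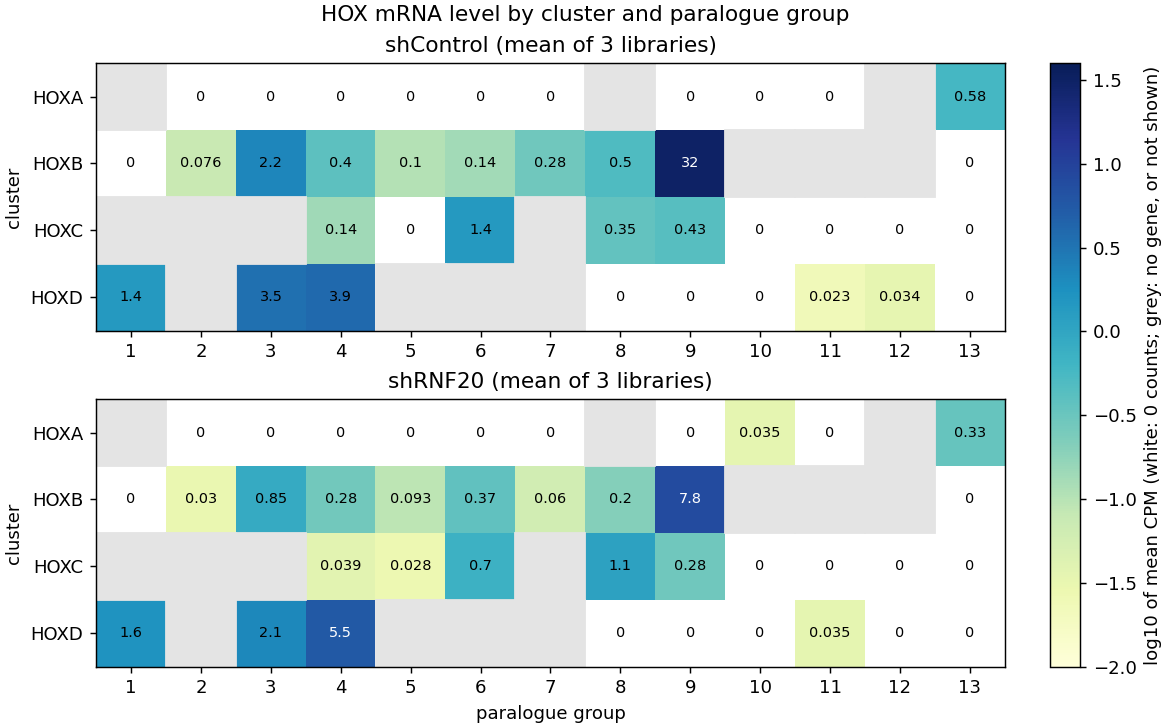
Mean CPM of each HOX gene (number and colour, log10 scale) by cluster (rows) and paralogue group (columns), in 3 shControl libraries above and 3 shRNF20 libraries below; white cells had 0 counts and grey cells have no gene or are not shown. HOXB9 is the darkest cell in both groups, at 31.6 CPM in shControl and 7.77 in shRNF20, and cluster A is empty but for HOXA13 and, in shRNF20, a trace of HOXA10.

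A further 10 members had reads but too few for the test, which asked for about 10 counts, or 0.39 CPM, in as many libraries as a group holds. None of them exceeded 14 counts in a library. In cluster B they were HOXB2 (0 to 3 counts), HOXB4 (5 to 14), HOXB5 (1 to 4), HOXB6 and HOXB7. HOXB6 had 1, 3 and 6 counts in shControl and 11, 10 and 7 in shRNF20. Its groups overlapped in CPM (0.0338 to 0.255 in shControl and 0.246 to 0.453 in shRNF20). HOXB7 had 12, 7 and 4 counts in shControl and 0, 4 and 0 in shRNF20, with a shared value of 4. In cluster C they were HOXC4 (1 to 6 counts in shControl and 0 to 2 in shRNF20) and HOXC5 (0 in shControl and 0 to 1 in shRNF20). HOXA10 (3 counts in shRNF20 replicate 3), HOXD11 (2 in shControl replicate 1 and 3 in shRNF20 replicate 3) and HOXD12 (3 in shControl replicate 1) had 0 counts in their other libraries. So few reads are a detection but do not allow the groups to be compared. HOXC5 and HOXB6 share much of their exon sequence with other genes in GENCODE 29, with 40.1% and 67.1% of their exon bases unshared, and reads over shared exons are left out of these counts.

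The 10 members that were tested are a single gene of cluster A (HOXA13), 3 of cluster B (HOXB3, HOXB8, HOXB9), 3 of cluster C (HOXC6, HOXC8, HOXC9) and 3 of cluster D (HOXD1, HOXD3, HOXD4). HOXA13, HOXB8 and HOXC6 reached 0.39 CPM in all 3 libraries of shControl but not of shRNF20, and HOXC8 in all 3 of shRNF20 but not of shControl. The filter counted libraries of either group. HOXB8 passed on shControl alone, while HOXA13, HOXC6 and HOXC8 also reached 0.39 CPM in 1, 2 and 2 libraries of the other group. A gene that is high in 1 group can pass through that group alone, so the filter favours a difference. No count or median over the tested members therefore supports a result. Of the tested members 7 had groups that did not overlap, against 66.3% of all genes tested. Their median log2 fold change was -0.75, against -0.01 over all genes tested.

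HOXB9 (ENSG00000170689.10, chr17:48621159-48626356, minus strand) is the posterior gene of its cluster before a long gap to HOXB13, and with its group 9 paralogues it acts in development of the mammary gland. It had 949, 872 and 669 counts in shControl and 168, 182 and 245 in shRNF20. These were 32.1, 34.4 and 28.5 CPM against 6.46, 8.25 and 8.60, and every shRNF20 library lay below every shControl library by a factor of over 3. The means were 31.6 ± 2.99 CPM (SD, n = 3) and 7.77 ± 1.15 (SD, n = 3). The log2 fold change was -2.03 (SE 0.14, edgeR adjusted p = 1.7e-05). HOXB9 passed the threshold under all 17 alternatives to the analysis, with a log2 fold change between -2.12 and -1.92. In a bulk sample fewer cells with HOXB9 mRNA and less of it per cell cannot be told apart, for this and the other genes. None of the exons of HOXB9 is shared with another gene in GENCODE 29, and the sum of the strand columns gave it the same counts.

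HOXB3 (chr17:48548870-48604912, minus strand) belongs to the anterior end of the same cluster and is known for patterning the hindbrain. It had 2.67, 2.01 and 1.91 CPM in shControl and 0.922, 0.771 and 0.842 in shRNF20, from 45 to 79 counts and 17 to 24 counts. The groups did not overlap, and the log2 fold change was -1.38 (SE 0.26, edgeR adjusted p = 0.00219). The call was lost only with the 3 shRNF20 libraries taken as 1 summed sample (edgeR adjusted p = 0.0824). Its first exons lie far upstream, so that its span takes in HOXB4 and HOXB5 and overlaps HOXB6. Of its exon bases 86.8% are unshared, and 393 are shared with the antisense genes HOXB-AS1 and HOXB-AS3. With both strand columns summed, which returns reads over antisense exons, HOXB3 had 145, 97 and 61 counts in shControl. In shRNF20 it then had 55, 31 and 44, and it was again called lower.

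HOXC8 (chr12:54009106-54012362, plus strand) patterns the thoracic skeleton and its motor neurons. It was at 0.203, 0.394 and 0.468 CPM in shControl, from 6 to 11 counts, and at 0.807, 1.27 and 1.30 in shRNF20, from 21 to 37 counts. Every shRNF20 library was above every shControl library, and shControl replicate 1 was the lowest. The log2 fold change was 1.67 (SE 0.40, edgeR adjusted p = 0.00657), a 3.19-fold rise from a level near the filter. Summing the shRNF20 libraries to 1 sample gave an edgeR adjusted p of 0.0816.

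**Figure D2:**
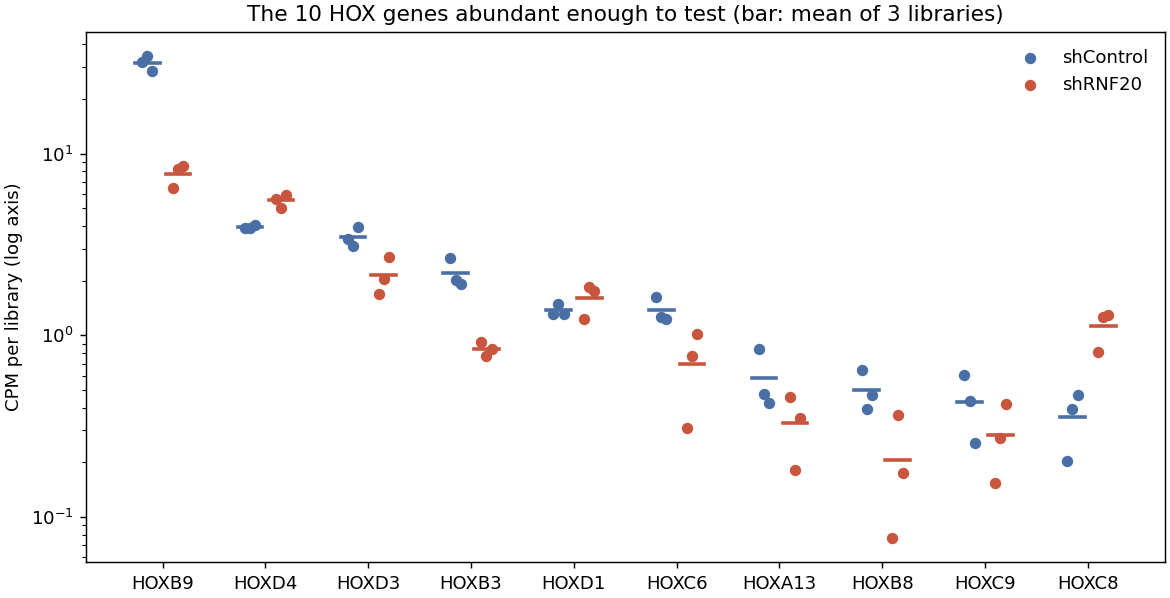
CPM (log axis) of the 10 tested HOX genes in each of 3 shControl (blue) and 3 shRNF20 (red) libraries, with a bar at each group's mean. HOXB9 stands alone above 6 CPM in every library; the groups of HOXA13, HOXC9 and HOXD1 overlap, while HOXC8 and HOXD4 are the genes whose shRNF20 points all lie above the shControl points.

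The 2 tested genes of cluster D that passed the threshold moved in opposite directions although their transcription units overlap. HOXD3 (chr2:176136612-176173102, plus strand), known for raising integrin genes in endothelial and tumour cells, has a first exon far upstream, so that HOXD4 (chr2:176151222-176153226, plus strand), a gene of the hindbrain and neck vertebrae, lies within its span. The annotation gives them no shared exon. Of the exon bases of HOXD3, 85.4% are unshared, and 518 are shared with antisense genes, while HOXD4 shares none. Among these antisense genes is the long noncoding RNA HAGLR, which also fell (log2 fold change -1.37). Reads over the shared bases are left out of the counts used here. With both strand columns summed, which returns such reads, HOXD3 was again called lower. The part of this overlap in the difference of HOXD3 was not tested. HOXD3 was at 3.38, 3.12 and 3.96 CPM in shControl and 1.69, 2.04 and 2.702 in shRNF20, with shRNF20 replicate 3 nearest to the controls and no overlap. Its log2 fold change was -0.69 (SE 0.24, edgeR adjusted p = 0.0339). HOXD4 was at 3.89, 3.90 and 4.04 CPM in shControl and 5.61, 5.03 and 5.97 in shRNF20, again with no overlap and with very little spread among the controls. Its log2 fold change was 0.49 (SE 0.16, edgeR adjusted p = 0.0282), a 1.41-fold rise.

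Both calls of cluster D rest on few libraries. The call of HOXD3 was lost without shControl replicate 3 (edgeR adjusted p = 0.0838), without shRNF20 replicate 1 (0.127) or 2 (0.0998), in the test against a minimum of 1.2-fold (0.0698) and with the shRNF20 libraries summed (0.235). That of HOXD4 was lost under 9 of 17 alternatives, among them DESeq2 (adjusted p = 0.0537), and without shControl replicate 1 (edgeR adjusted p = 0.0508) or shRNF20 replicate 1, 2 or 3 (0.103, 0.0570 and 0.122). The log2 fold changes kept their sign under all 17, from -0.91 to -0.56 for HOXD3 and from 0.42 to 0.54 for HOXD4. Within each library the ratio of HOXD3 to HOXD4 reads does not depend on scaling. It was 0.870, 0.798 and 0.979 in shControl and 0.301, 0.405 and 0.453 in shRNF20, so every shRNF20 library lay below every control. The ratio was chosen after these values were seen and is given without a test.

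A similar contrast stood in cluster C between HOXC8 and HOXC6, which overlap in the same way: HOXC6 (chr12:53990624-54030823, plus strand) begins upstream of HOXC9 and spans HOXC8. HOXC6, known in mammary gland and as a gene raised in several carcinomas, was at 1.62, 1.26 and 1.23 CPM in shControl and 0.307, 0.771 and 1.02 in shRNF20. Its groups did not overlap, but shRNF20 replicate 1 lay far below the other 2 and the test missed the threshold (log2 fold change -0.97, SE 0.41, edgeR adjusted p = 0.0710). Its adjusted p was 0.0456 without shRNF20 replicate 3 and 0.0372 with no filter on low counts. The ratio of HOXC8 to HOXC6 reads was 0.125, 0.312 and 0.379 in shControl and 2.62, 1.65 and 1.28 in shRNF20. HOXC6 was thus the more abundant of the pair in every control library and HOXC8 in every shRNF20 library. This ratio too was chosen after its values were seen.

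The other 4 tested members missed the threshold. HOXB8, a gene of the thoracic region and of myeloid progenitors, was at 0.642, 0.394 and 0.468 CPM in shControl and 0.0769, 0.363 and 0.176 in shRNF20. Its groups did not overlap, and its log2 fold change was -1.33 (SE 0.53, edgeR adjusted p = 0.0585), with an adjusted p of 0.0300 without shRNF20 replicate 2 and of 0.0446 in limma-voom. HOXA13, which patterns the distal limb and hindgut, was at 0.845, 0.473 and 0.425 CPM against 0.461, 0.181 and 0.351 (log2 fold change -0.80, SE 0.46, edgeR adjusted p = 0.164). HOXC9, of the thoracic region, was at 0.609, 0.434 and 0.255 CPM against 0.154, 0.272 and 0.421 (log2 fold change -0.61, SE 0.50, edgeR adjusted p = 0.319). HOXD1, the most anterior gene of its cluster, was at 1.32, 1.498 and 1.32 CPM against 1.23, 1.86 and 1.76 (log2 fold change 0.23, SE 0.26, edgeR adjusted p = 0.485). Groups overlapped for these last 3 genes. The 95% intervals of their log2 fold changes reached from -1.84 to 0.24 for HOXA13, from -1.76 to 0.53 for HOXC9 and from -0.37 to 0.82 for HOXD1. Differences inside these intervals are not excluded.

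**Figure D3:**
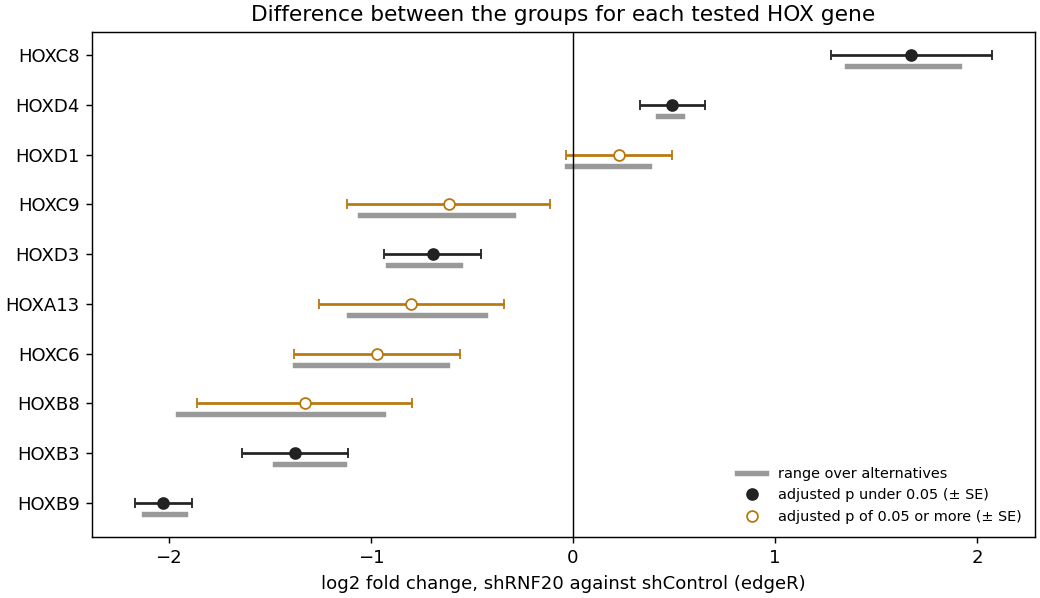
log2 fold change of each tested HOX gene, shRNF20 against shControl (edgeR; point and SE), with filled points for adjusted p under 0.05 and a grey bar for the range over the alternatives. HOXB9 lies farthest to the left at -2.03 and HOXC8 farthest to the right at 1.67; the grey bar of HOXD1 is the one that crosses 0.

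Summed by cluster, the largest difference in CPM was in cluster B. Its 10 genes summed to 36.5, 37.9 and 31.7 CPM in shControl and 8.15, 10.6 and 10.3 in shRNF20, a 3.66-fold difference in means with no overlap. Without HOXB9 the other 9 summed to 3.70 ± 0.61 CPM (SD, n = 3) and 1.88 ± 0.37 (SD, n = 3). Cluster C summed to 2.30 ± 0.29 CPM in shControl and 2.17 ± 0.78 in shRNF20, and cluster D to 8.86 ± 0.41 and 9.33 ± 1.06, differences within the spread between libraries. The log2 ratio of cluster C changed sign without shControl replicate 1 (from -0.08 to 0.0064) or shRNF20 replicate 1 (0.18). That of cluster D did so without shRNF20 replicate 3 (from 0.07 to -0.02) and with the strand columns summed (-0.01). Cluster A held only 0.581 ± 0.23 CPM and 0.366 ± 0.16, nearly all of it HOXA13.

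By position along the clusters, paralogue groups 1 to 3 summed to 7.14 ± 0.36 CPM (SD, n = 3) in shControl and 4.63 ± 0.74 in shRNF20. Groups 4 to 8 summed to 7.24 ± 0.24 and 8.44 ± 0.83, and groups 9 to 13 to 32.7 ± 3.19 and 8.45 ± 1.27. The libraries of the 2 groups did not overlap in these 3 bands, although in groups 4 to 8 the nearest values were 7.51 and 7.53. HOXB9 carried the posterior band, whose other 15 members summed to 1.07 ± 0.49 CPM in shControl and 0.684 ± 0.27 in shRNF20. The tested genes of the anterior band were HOXB3 and HOXD3, which fell, and HOXD1 (log2 fold change 0.23, not called). Those of the central band were HOXC8 and HOXD4, which rose, and HOXC6 (-0.97) and HOXB8 (-1.33), which were not called. Over all 39 genes the sum was 47.1 ± 3.17 CPM in shControl and 21.5 ± 2.84 in shRNF20, and without HOXB9 15.4 ± 0.98 and 13.8 ± 1.73. These sums were not tested, since each is a score over members whose results were known.

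HOXB9 accounted for 65.9%, 69.9% and 65.5% of HOX counts in the shControl libraries and for 35.0%, 37.4% and 35.8% in the shRNF20 libraries. HOXD4 made up 7.99%, 7.94% and 9.30% in shControl and 30.4%, 22.8% and 24.8% in shRNF20. The share of a gene depends on its length and on what the others do, so a larger share is not by itself a higher level.

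**Figure D4:**
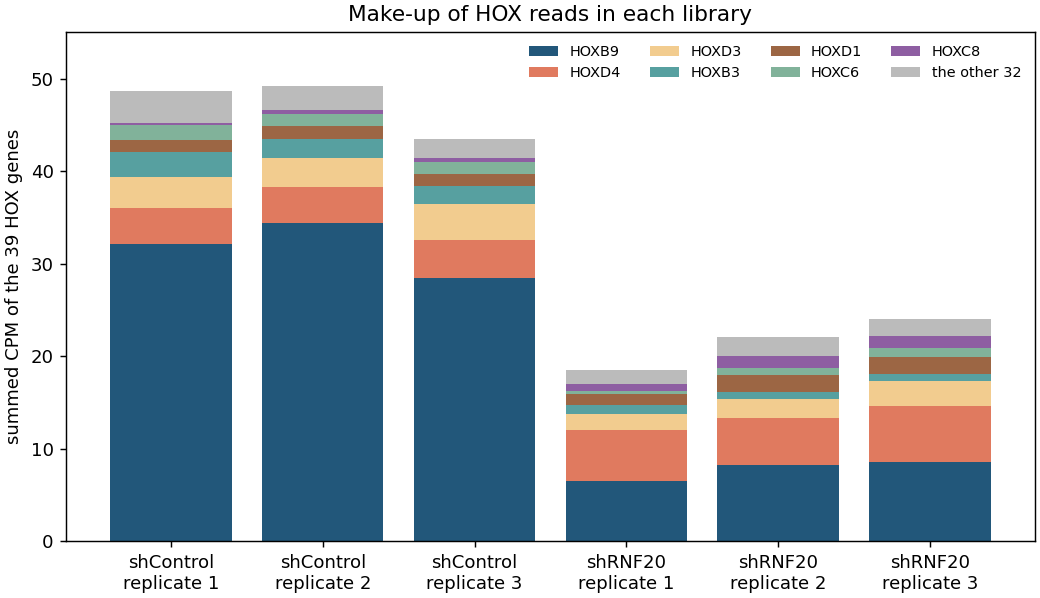
Summed CPM of the 39 HOX genes in each of the 6 libraries (bars from 0), split by gene. The shControl bars reach 43.4 to 49.2 CPM and the shRNF20 bars 18.4 to 24.0, and most of the gap is the HOXB9 segment at the base.

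Levels of different genes were compared per length, as CPM per kilobase of exon that no other gene shares. On that scale HOXB9 was the highest in shControl at 12.3 ± 1.16 (SD, n = 3), followed by HOXD4 at 2.69 ± 0.058, HOXD1 at 1.67 ± 0.13, HOXD3 at 1.15 ± 0.14, HOXC6 at 0.460 ± 0.073 and HOXB3 at 0.340 ± 0.064. HOXB9 was thus 4.55 times the next gene. From HOXB3 down came HOXC9 (0.285), HOXB8 (0.245), HOXC8 (0.188), HOXB7 (0.186), HOXB4 (0.128) and HOXA13 (0.116), of which HOXB7 and HOXB4 were under the filter, and each differed from the next by less than the larger of their SDs. In shRNF20 the order at the top was HOXD4 at 3.78 ± 0.32, HOXB9 at 3.01 ± 0.45 and HOXD1 at 1.95 ± 0.41. HOXD4 was above HOXB9 in all 3 shRNF20 libraries, by the least in replicate 2 (3.44 against 3.20). The place of HOXD1 depends on the length and reads used: in shRNF20 it was at 0.817 per kilobase of all exon, and with the strand columns summed at 2.65 beside HOXD4 at 3.29 and HOXB9 at 2.62. In shControl it was at 0.698 per kilobase of all exon, below HOXD3 at 0.982, and with the strand columns summed at 2.696, above HOXD4 at 2.30. HOXB3 and HOXC6 also changed places in shControl with the strand columns summed, at 0.470 ± 0.14 and 0.393 ± 0.062. In shRNF20 HOXC8, at 0.596 ± 0.15, stood next to HOXD3 at 0.708 ± 0.17, within their spread.

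The value of HOXD1 depends on how reads over antisense genes are counted. Only 41.9% of its exon bases are unshared in GENCODE 29, with 1147 bases shared with antisense genes, which are HAGLR at its 5′ end and AC009336.3 at its 3′ end. HAGLR, a long noncoding RNA (chr2:176164051-176188958, minus strand), also runs antisense to the 3′ end of HOXD3. With both strand columns summed, which returns reads of antisense overlaps to both genes, HOXD1 had 160, 200 and 114 counts in shControl and 153, 132 and 160 in shRNF20, and its log2 fold change was -0.03, of opposite sign. HAGLR itself was at 21.6, 19.0 and 21.3 CPM in shControl and 8.15, 7.12 and 8.67 in shRNF20. It fell 2.58-fold with no overlap (log2 fold change -1.37, SE 0.12, edgeR adjusted p = 5.15e-05). Each strand column held nearly the same number of reads (50.1% to 50.2% in 1 of them). The reads therefore do not tell HOXD1 or HOXD3 from their antisense genes where they overlap.

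HAGLR was the 1 tested member of a list of other genes in the clusters (noncoding RNAs, microRNA precursors, a readthrough gene, PRAC1 and PRAC2), of which 28 were listed, 26 were in the files and 11 had any count. HOTAIR, the cluster C transcript linked to breast cancer spread, had 1 count in 1 shRNF20 library and 0 in the others. HOTTIP, next to HOXA13, had at most 2 counts in a library and HOTAIRM1, also in cluster A, had 0. HOXB-AS3 had 0 to 9 counts and HAGLROS 0 to 6. The microRNA precursors MIR10A, MIR10B, MIR196A1, MIR196A2, MIR196B and MIR615 had at most 1 count, which says nothing of the mature microRNAs.

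The genes next to the clusters were then set beside the members, a choice made after the data were seen. Of 46 protein-coding genes within 500 kb of a cluster, 29 were tested, with 5 higher and 8 lower in shRNF20. Both tested neighbours of cluster A were lower: SKAP2 (log2 fold change -1.40, edgeR adjusted p = 1.59e-04) and HIBADH (-1.53, 8.83e-06). Around cluster B, 4 of 11 were lower (NFE2L1, CALCOCO2, UBE2Z and B4GALNT2) and 2 higher (CBX1 and SNF8). Around cluster C, CALCOCO1 was lower and PCBP2, MAP3K12 and TARBP2 were higher among 14. Around cluster D, MTX2 was lower (log2 fold change -0.40, edgeR adjusted p = 0.00440) and LNPK missed the threshold (-0.26, 0.0990). Over all 29 neighbours these counts are read against the 28.7% higher and 29.8% lower of all genes tested.

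HOX proteins bind DNA together with TALE homeodomain cofactors of the PBX and MEIS families. The list of cofactors also held TGIF1, TGIF2 and PBXIP1, and 10 of its 12 genes were tested. Of these, 2 were higher and 4 lower, with a median log2 fold change of -0.22. Over all genes tested 28.7% were higher and 29.8% lower, with a median of -0.01. MEIS2, a cofactor that also patterns the proximal limb, fell from 8.96 ± 1.93 to 5.15 ± 0.30 CPM (SD, n = 3; log2 fold change -0.80, edgeR adjusted p = 0.00546), and PBXIP1, which binds PBX proteins, and TGIF2, a TALE repressor, were also lower (-0.57 and -0.30). PBX3 rose (0.44, adjusted p = 0.00362) and so did PBX4 (0.40, adjusted p = 0.0462), so the cofactors did not move one way. Of these 2 higher calls 1 was lost under 9 of 17 alternatives, and both with the shRNF20 libraries taken as 1 summed sample, which also left none of the 4 lower calls.

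Among homeobox genes outside the clusters, 40 of 70 were tested, with 8 higher and 15 lower (28.7% and 29.8% over all genes tested) and a median of -0.19. ZFHX3, a large zinc finger and homeodomain protein, fell from 42.8 ± 2.45 to 19.97 ± 3.21 CPM (SD, n = 3; log2 fold change -1.10, edgeR adjusted p = 1.51e-04). SHOX2, a limb and heart gene, rose from 15.3 ± 2.29 to 32.3 ± 1.10 CPM (SD, n = 3; log2 fold change 1.08, edgeR adjusted p = 1.60e-04). CDX1, CDX2 and CDX4, which drive posterior HOX genes in the embryo, had 0 counts in every library.

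Genes of the chromatin complexes that keep HOX genes off or on changed in both directions. Of 37 Polycomb genes 36 were tested, with 16 higher and 7 lower and a median log2 fold change of 0.10, where 28.7% of all genes tested were higher and 29.8% lower. PCGF3, a subunit of a variant PRC1, and MTF2, which brings PRC2 to CpG islands, rose (0.98, edgeR adjusted p = 1.92e-05, and 1.06, 2.18e-05). EPOP and JARID2, accessory subunits of PRC2, fell (-1.40, 1.66e-04, and -0.72, 2.09e-04). EZH2, the methyltransferase of PRC2, was at 60.3 ± 19.6 and 63.2 ± 3.26 CPM (SD, n = 3; log2 fold change 0.06, edgeR adjusted p = 0.799). The MLL and DOT1L list held 35 regulators of HOX genes, and all 35 were tested. Of these, 15 were higher and 10 lower, with a median of 0.11, against the same background of 28.7% and 29.8%. Beside MLL/COMPASS and DOT1L genes it holds other regulators, among them CTCF, NSD1, NSD2, KDM5A, KDM5B, KDM5C, BAP1, USP16 and MYSM1. ASXL1, a partner of the BAP1 deubiquitinase, and SETD1A, a methyltransferase of the COMPASS family, rose (0.74, 4.50e-05, and 0.58, 1.23e-04), and AFF1 and MLLT3, subunits of the super elongation complex, fell (-1.16, 3.14e-05, and -1.27, 1.85e-04). KMT2A, the MLL methyltransferase best known for keeping HOX genes on, fell slightly (-0.37, 0.0369), and its partner MEN1 fell too (-0.50, 0.00108), whereas DOT1L missed the threshold (-0.07, 0.499). EZH2, KMT2A, MEN1 and DOT1L were named for their roles after their values were seen.

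Of 18 retinoic acid genes 9 were tested, with 2 higher, 4 lower and a median of -0.27. RARA, a receptor, rose from 26.5 ± 1.66 to 43.7 ± 1.09 CPM (SD, n = 3; log2 fold change 0.72, edgeR adjusted p = 1.87e-04) and RXRB, a receptor partner, rose less (0.29, 0.0194). ALDH1A3, which makes retinoic acid, fell (-1.09, 6.16e-04), as did the receptors RXRA (-0.46, 7.16e-04) and RARG (-0.65, 0.0162) and the retinaldehyde reductase DHRS3 (-1.11, 0.00661). These shares, too, are to be read against 28.7% higher and 29.8% lower over all genes. HOXB1, an anterior gene that retinoic acid induces early, had 0 counts in both groups.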

How the data were processed

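Total RNA of MDA-MB-231 cells was extracted with a column kit and sequenced in 3 shControl and 3 shRNF20 libraries, grouped by their titles. Per the submitters' processing notes, FastQC 0.12.1 and STAR 2.7.11a were used with the hg38 build. The sources used here do not give the annotation release. The authors deposited raw read counts per gene, without strand and for each strand, of which those without strand were used (21988826 to 29685306 per library). In these, a read that touches exons of several genes is set aside as ambiguous (10.7% to 11.2% of reads), so overlapping and antisense genes are underestimated. Lines that name no gene (20.9% to 24.1% of reads) were left out. Symbols were matched by identifier for 62686 of 62703 genes. Positions and exon lengths came from GENCODE 29 on GRCh38, and homeoboxes from the transcript sequences of the same release.

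Counts were tested with R 4.3.3 and edgeR 4.0.16: filterByExpr (minimum count 10), TMM scaling and the robust quasi-likelihood F-test, with Benjamini-Hochberg adjustment over all genes tested and a threshold of 0.05. The script was tested on simulated data. SEs are the log2 fold change divided by the root of F, and 95% intervals use the test's degrees of freedom. CPM use all gene counts times the TMM factor, and errors are SDs over 3 libraries. Sums by cluster and levels per length were not tested. The members, the gene lists and the naming rule (all 39 HOX genes, RNF20, and of each other list the 2 called genes with the smallest p in each direction, with counts of 5 or fewer named in full) were chosen with earlier results of these data known. Some genes that this rule names, and some homeobox sequences, are not reported here.

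The alternatives tried were other tools (DESeq2 1.42.0 and limma-voom with limma 3.58.1), scaling by upper quartile or RLE, other filters (none, or CPM of at least 1 in 3 libraries), both strand columns summed, a block for the replicate number, mitochondrial genes removed, the 3 shRNF20 libraries taken as 1 summed sample, a minimum of 1.2-fold in the test, and leaving out 1 library at a time.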

Additional observations from a re-analysis of the deposited data

How the results depend on the processing

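Of the 10 tested HOX genes, HOXB9 kept its call under all 17 alternatives, and HOXB3 (17) and HOXC8 (16, since a CPM of at least 1 in 3 libraries removed it) lost theirs only with the 3 shRNF20 libraries taken as 1 summed sample. The 2 higher HOX genes became 1 with DESeq2, with no filter on low counts, with a CPM of at least 1 in 3 libraries, with the replicate block and in the test against 1.2-fold, 0 with the shRNF20 libraries summed (where 1 had an unadjusted p under 0.05 in edgeR), and 1 to 3 when each library was left out in turn. The 3 lower HOX genes became 5 with no filter on low counts (HOXC6 and HOXB7 were added), 1 with the shRNF20 libraries summed, and 2 to 4 when each library was left out. HOXB6 was called higher with the strand columns summed (3 higher in all) and without shControl replicate 3. HOXD1 turned to a log2 fold change of -0.027 with the strand columns summed, a setting that returns reads over antisense exons. The level of HOXB9 per length was 3.88 times the next gene, there HOXD1, with the strand columns summed, in place of 4.55. Same-numbered libraries of the 2 groups did not deviate together (correlations of -0.016, 0.035 and 0.028) and not every library correlated best with its own number, so the replicate block gave only a count: 1 higher and 3 lower, with 8936 genes called in all. With the shRNF20 libraries summed, 3395 genes were called in place of 9232; Polycomb calls went from 16 higher and 7 lower to 9 and 4, MLL and DOT1L calls from 15 and 10 to 5 and 2, other homeobox calls from 8 and 15 to 3 and 6, and retinoic acid calls from 2 and 4 to 1 and 0. In the test against 1.2-fold MLL and DOT1L calls were 9 and 6, and without shRNF20 replicate 2 other homeobox genes had 5 higher calls. The cause of these differences was not tested. Depth limits the rest: 10 HOX genes had at most 14 counts in a library, and a count of 0 allows up to 0.136 CPM.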
